A study of Mus musculus with 20 samples.

Results

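The places listed as occupied by RNA polymerase II (RNA Pol II) were compared between 3T3-L1 cells on day 0 and 4 hours after the induction of adipogenesis. The members were all 27342 peaks of the 2 RNA Pol II ChIP-seq lists, 14784 of day 0 and 12558 of 4 hours, among 284878 peaks in the 19 lists of the series. A peak was counted as kept where it overlapped a peak of the other list by at least 1 bp. It was counted as lost where it stood in the day 0 list alone, and as gained where it stood in the 4 hours list alone. These words say only in which list a peak stands, since the lists give positions and no heights.

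3T3-L1 is a clonal mouse preadipocyte line that turns into adipocytes when exposed to hormones. Per the labels, the cells were grown in DMEM with calf serum, and day 0 cells were preadipocytes that had been confluent for 2 days. The 4 hours cells had been given dexamethasone, a synthetic glucocorticoid, together with insulin, 3-isobutyl-1-methylxanthine, which blocks phosphodiesterases, and fetal bovine serum. The parts of these 4 agents cannot be told apart in this comparison. Both ChIP-seq libraries are labelled with an antibody to RNA Pol II, with no form of the polymerase named. Each group held 1 library, and the labels do not say from how many cultures. Time and library therefore cannot be told apart, no replicate spread exists, and no test was made. Intervals are exact (Clopper-Pearson) 95% intervals for shares and Newcombe 95% intervals for differences between shares. They cover counting over peaks only, and since neighbouring peaks are not independent they are too narrow even for that. The input sample was not analysed here.

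RNA Pol II transcribes protein-coding genes. In ChIP-seq it gathers near the start sites of active genes, where it often pauses, and it spreads along the bodies of strongly transcribed genes, so that one gene can give a single narrow peak, a wide peak or a row of peaks. Open chromatin, read here as DNase I hypersensitive sites (DHS), marks promoters and enhancers. The glucocorticoid receptor (GR) is the nuclear receptor that dexamethasone activates. C/EBPbeta and C/EBPdelta are transcription factors of early adipogenesis, Stat5a is activated by cytokine and hormone receptors, RXR is the partner of many nuclear receptors, and PPARgamma is the main regulator of the adipocyte state. No gene annotation of the build of the files was used here, so places are given by position and the labelled cell type was not checked against marker genes.

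The RNA Pol II lists covered 8.83 Mb on day 0 and 8.13 Mb at 4 hours, with median peak widths of 513 bp and 536 bp. Read depth and peak caller are not given in the sources used here. The lists stood apart from the other 17 in their narrow peaks: 10.1% of day 0 peaks and 7.89% of 4 hours peaks had the shortest width of 251 bp. In the other lists at most 1.93% of peaks had the shortest width of their list. The day 0 list was also the longer of the pair, so a 4 hours peak had more day 0 peaks to meet than the reverse. Comparisons were therefore repeated at equal list length, with the widest 12558 day 0 peaks against all 12558 peaks of 4 hours.

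Counted as deposited, more than 50% of the RNA Pol II peaks of either time were also listed at the other, and those that were not were narrow. Of the day 0 peaks, 8191 (55.4%, 95% interval 54.6 to 56.2) were kept and 6593 (44.6%) were lost. Of the 4 hours peaks, 8201 (65.3%, 64.5 to 66.1) were kept and 4357 (34.7%, 33.9 to 35.5) were gained. With both lists at 12558 peaks the shares kept were 62.6% and 63.3%, which lie close by construction, with 4697 lost and 4607 gained peaks. Merging overlapping peaks gave 18710 regions, of which 41.5% were kept, 35.2% lost and 23.3% gained. More lost than gained peaks thus goes with the longer day 0 list. With every peak set to 200 bp around its middle, 42.2% of day 0 peaks were kept and 6320 of the 12558 peaks of 4 hours were gained, so at that setting kept peaks were the smaller class at both times.

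Kept peaks were wider than the rest. A wide peak also meets a peak of the other list more readily, and the part of this in the difference was not tested. Lost peaks had a median width of 384 bp (quartiles 267 and 489) and gained peaks one of 385 bp (268 and 510), against 647 bp (498 and 883) for kept day 0 peaks and 616 bp (480 and 902) for kept 4 hours peaks. The widths of lost and gained peaks therefore lay over nearly the same range, below those of kept ones. The shortest width was found in 19.9% of lost and 17.6% of gained peaks, but in 2.27% and 2.73% of kept peaks of day 0 and 4 hours. At the other end, 125 lost peaks (1.90%) and 147 gained peaks (3.37%) were at least 1000 bp wide, as were 17.7% and 19.6% of the kept ones. So the gained class held more wide peaks than the lost class although it was the smaller in number. With equal list length the median of lost peaks was 441 bp and that of gained peaks 390 bp, since that setting takes narrow peaks from the day 0 list alone.

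Split into quartiles of width, the share of day 0 peaks kept was 17.6% (16.4 to 18.9) in the narrowest quartile, 42.9% and 72.1% in the middle ones and 89.0% (88.0 to 90.0) in the widest. For 4 hours peaks the shares were 29.4%, 61.4%, 80.0% and 90.4% (89.4 to 91.4). The order was the same in both lists. The widest peaks were thus mostly found at both times, and most of the turnover lay in peaks under the median width.

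**Figure D1:**
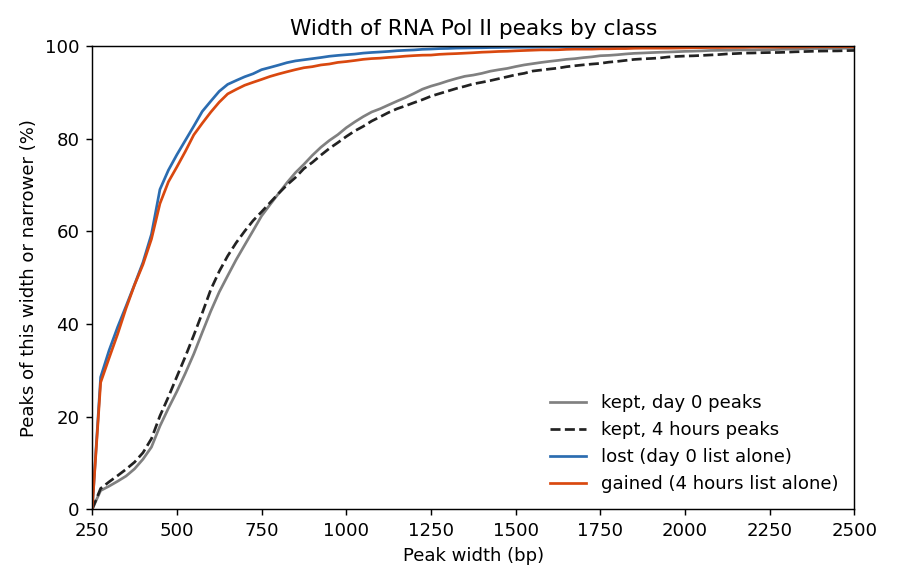
Cumulative share of RNA Pol II peaks (percent, vertical axis) at or below each width (bp, horizontal axis) in 4 classes, 1 line each: kept peaks of day 0 and of 4 hours, lost peaks and gained peaks. The lines of lost and gained peaks run together, with medians of 384 bp and 385 bp, far to the left of those of kept peaks (647 bp and 616 bp).

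Where a peak was kept, its width was on balance alike at both times. Of 7768 kept regions, 7040 joined a single day 0 peak to a single 4 hours peak. In 316 a single 4 hours peak met several day 0 peaks, in 326 a single day 0 peak met several 4 hours peaks, and 86 held several of each. In the 7040 simple pairs, the ratio of the 4 hours width to the day 0 width had a median of 0.993 and quartiles of 0.788 and 1.21. The peak was wider at 4 hours in 3423 pairs, narrower in 3586 and equal in 31. Differences by a factor of at least 2 were about as common in either direction, with 391 pairs (5.55%) wider and 389 (5.53%) narrower at 4 hours. The widest kept peak of day 0, on chromosome 1 at 164147489 to 164156359 (8871 bp), met 5 peaks of 4 hours and lay in all 6 DHS lists. The next, on chromosome 11 at 86393153 to 86399399 (6247 bp), met a single 4 hours peak, lay in all 6 DHS lists and had a GR peak 0.867 kb away. The third, on chromosome 17 at 36053614 to 36058946 (5333 bp), met 2 peaks of 4 hours and also lay in all 6 DHS lists.

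Gained peaks lay nearer to occupied places than lost peaks did. Within 1 kb of a day 0 peak were 29.5% (28.1 to 30.8) of gained peaks, and within 1 kb of a 4 hours peak 17.0% (16.1 to 17.9) of lost peaks. Within 5 kb the shares were 43.3% (41.8 to 44.8) and 25.2% (24.1 to 26.2). The median gap was 12.2 kb for gained and 44.0 kb for lost peaks. The longer day 0 list favours gained peaks here, but the order was the same at equal list length: 27.9% and 18.2% within 1 kb, 40.4% and 26.4% within 5 kb, and medians of 16.6 kb and 36.5 kb. Gained peaks thus stood beside RNA Pol II of the other list more often than lost peaks did, though most peaks of either class had none within 5 kb.

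**Figure D2:**
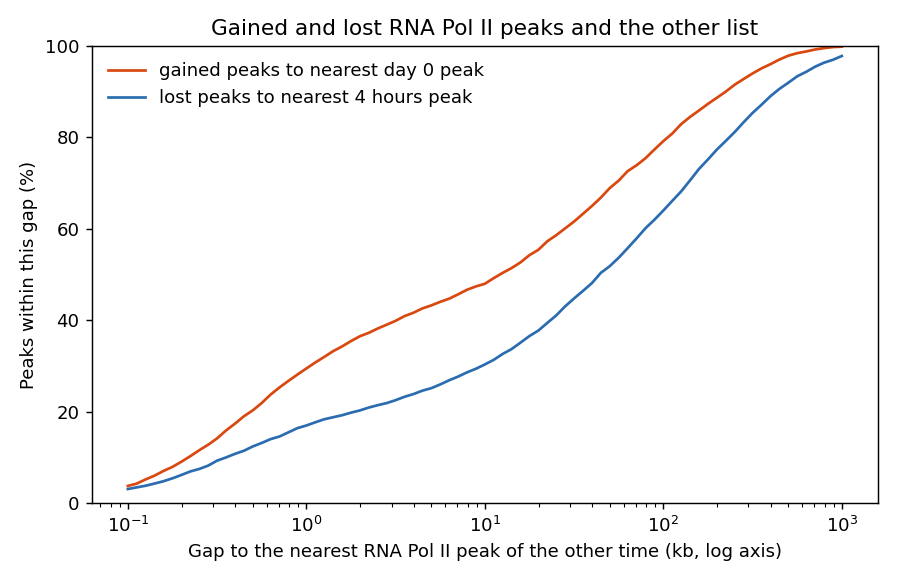
Share of peaks (percent, vertical axis) whose nearest RNA Pol II peak of the other time lies within a given gap (kb, horizontal log axis), for gained and for lost peaks. The line of gained peaks lies above that of lost peaks over the whole range, with 43.3% against 25.2% at 5 kb.

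Gained peaks also stood side by side more often. A run was defined as 3 or more peaks of 1 list with gaps of at most 5 kb. The day 0 list held 530 runs with 1838 peaks (12.4% of the list) and the shorter 4 hours list 591 runs with 2050 peaks (16.3%). Runs held up to 10 peaks on day 0 and up to 8 at 4 hours, with median lengths of 3.75 kb and 3.80 kb. The longest spanned 14.9 kb on day 0 and 19.5 kb at 4 hours. Of gained peaks, 19.9% (18.7 to 21.1) stood in a run, against 10.97% (10.2 to 11.7) of lost peaks, a difference of 8.89 points (7.49 to 10.3). Kept peaks lay between them, with 13.6% on day 0 and 14.4% at 4 hours. At equal list length the shares were 19.8% of gained and 9.77% of lost peaks. The difference had the same sign with gaps of 1 kb (5.75 points) and in runs of at least 5 peaks (1.42 points), which hold few peaks of either class. Lost peaks were more often alone, with no peak of their own list within 5 kb: 67.7% of lost and 53.4% of gained peaks were.

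Most runs mixed classes. At 4 hours, 414 runs held kept and gained peaks, 133 kept peaks alone and 44 gained peaks alone. On day 0, 337 held kept and lost peaks, 147 kept peaks alone and 46 lost peaks alone. Joining the regions of both lists across gaps of at most 5 kb gave 13823 groups, of which 10388 were a single region. Among groups of several regions, 1019 held kept and gained regions but no lost one, 861 held kept and lost regions but no gained one, and 198 held all 3 classes. A further 331 held gained and lost regions without a kept one. A place with RNA Pol II at both times thus had added peaks beside it in somewhat more groups than it had dropped ones, although lost regions were the more numerous.

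The runs with most peaks show these forms. The largest run of gained peaks alone, on chromosome 1 at 40496637 to 40506969, held 6 peaks of 4 hours over 10.3 kb, and the nearest day 0 peak was 114 kb away. It touched DHS of 2 hours, 4 hours, day 1 and day 2 but not of day 0 or day 6, and a GR peak lay 5.35 kb from it. The next, on chromosome X at 120201113 to 120213447, held 5 peaks over 12.3 kb, among them the gained peak that ranked the third by width (2972 bp). It touched the DHS list of day 2 alone, although a DHS peak of 4 hours lay just outside, at -631 to -140 bp from its start. The run had no GR peak within 50 kb. The third, on chromosome 2 at 71377473 to 71384933, held 4 peaks over 7.46 kb, lay 9.42 kb from a day 0 peak and overlapped every C/EBPbeta and C/EBPdelta list. These gained runs thus differed among themselves in open chromatin and in factors.

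The largest runs of lost peaks alone held 5 peaks each. On chromosome 2 at 74535766 to 74550636 they spanned 14.9 kb, and the nearest 4 hours peak was 113 kb away. That run lay in the DHS lists of 4 hours, day 1 and day 2, and it overlapped a Stat5a peak, so the chromatin was listed as open at the time when RNA Pol II was not. Another, on chromosome 2 at 30449481 to 30457333, spanned 7.85 kb and lay in the DHS lists of 4 hours and day 1. The last, on chromosome 7 at 99877869 to 99881526, spanned 3.66 kb, touched no DHS list and lay 7.67 kb from a 4 hours peak. No GR peak lay within 50 kb of any of these 3 lost runs. Among the runs with most kept peaks, with 6 kept each, that on chromosome 17 at 15145676 to 15159518 had 8 day 0 and 7 peaks of 4 hours, was in no DHS list and yet overlapped all C/EBPbeta, C/EBPdelta and PPARgamma lists. Those on chromosome 10 at 96078760 to 96087199 and on chromosome 11 at 51812707 to 51817842 lay in all 6 DHS lists.

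**Figure D3:**
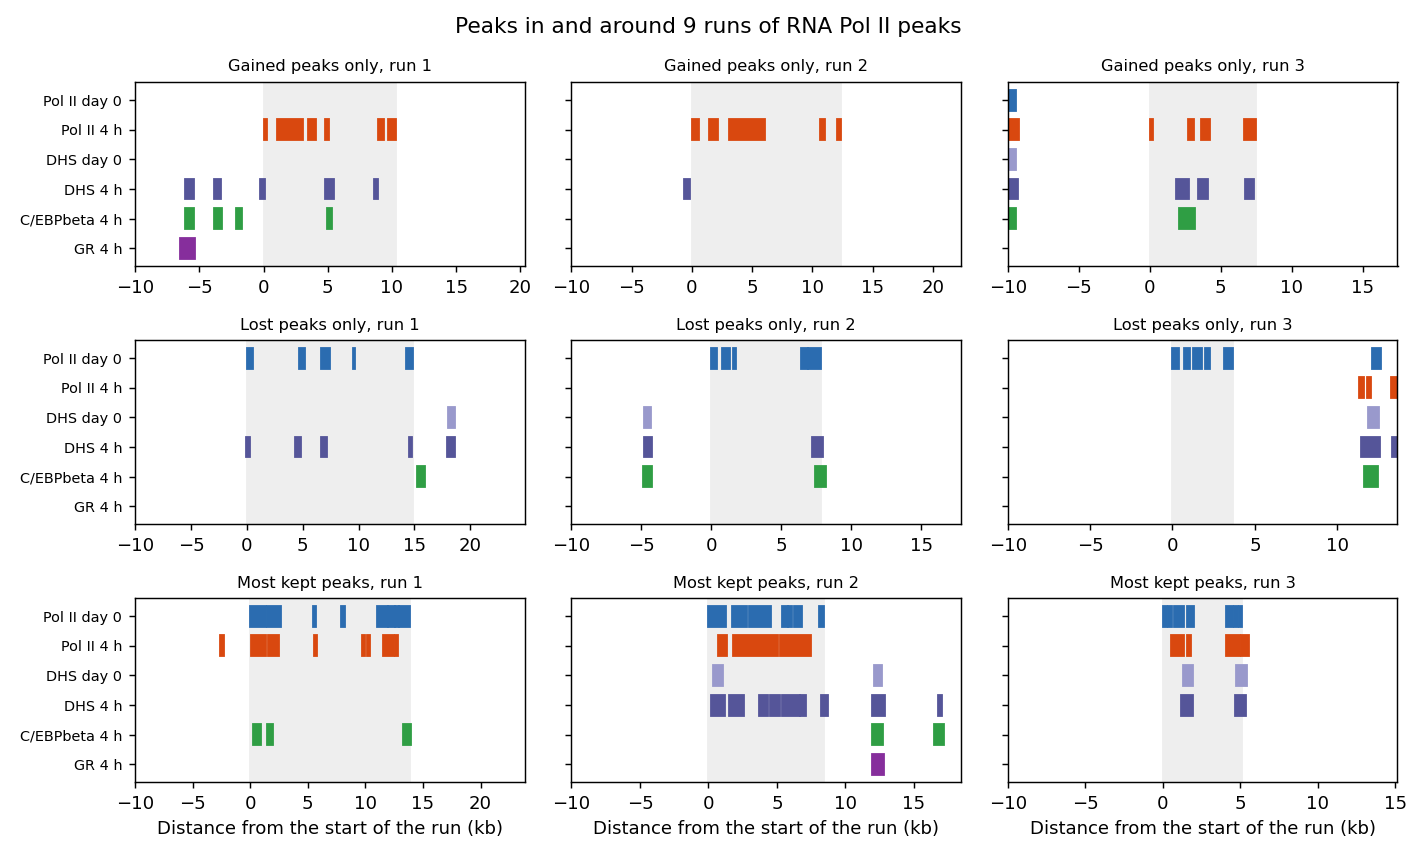
Maps of 9 runs of RNA Pol II peaks, 3 of gained peaks alone, 3 of lost peaks alone and 3 with most kept peaks, with distance from the start of the run in kb on the horizontal axis, the run in grey and 1 row each for RNA Pol II and DHS of both times and for C/EBPbeta and GR of 4 hours. In the lost runs on chromosome 2 (first and second of the middle row), DHS of 4 hours is present although RNA Pol II of 4 hours is not, and the first gained run has a GR peak 5.35 kb before it.

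Some groups with kept regions also changed in number of peaks; these were chosen after their values were seen. On chromosome 2 at 148226441 to 148234050, 1 peak of day 0 stood against 7 of 4 hours. On chromosome 19 at 5447512 to 5461051, the counts were 2 and 7. In the opposite direction, chromosome 19 at 5794100 to 5804749 had 10 peaks on day 0 and 3 at 4 hours, and chromosome 13 at 81021465 to 81025846 had 7 and 1. Both of these places lay in all 6 DHS lists. Fewer peaks can also mean that peaks joined: of the 10 day 0 peaks on chromosome 19, 5 were lost, and the other 5 lay in 3 kept regions.

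Open chromatin set kept peaks apart from both other classes at every time. In the 4 hours DHS list were 82.2% (81.4 to 83.0) of kept day 0 peaks, 33.7% (32.6 to 34.9) of lost and 32.8% (31.4 to 34.3) of gained peaks. In 200 bp around the middle of each peak, which gives every peak the same width, the shares were 79.6%, 32.0% and 29.8%. In the day 0 DHS list, which held 9989 peaks against 31751 at 4 hours, the shares were 51.8% of kept day 0 peaks, 18.6% of lost and 11.3% of gained peaks. Of gained peaks, 61.7% were in none of the 6 DHS lists, as were 59.8% of lost peaks and 12.7% of kept day 0 peaks. In all 6 lists were 6.11% of gained, 8.10% of lost and 28.5% of kept day 0 peaks. RNA Pol II listed at a single time thus lay mostly outside listed open chromatin.

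Between gained and lost peaks, the DHS lists fell into a pair of groups. In the lists of day 0, day 1 and day 6 gained peaks had the lower share, by -7.21 points (-8.53 to -5.87), -7.47 points (-9.21 to -5.71) and -5.39 points (-6.81 to -3.95). In the lists of 2 hours, 4 hours and day 2 the differences were -0.941 points (-2.11 to 0.255), -0.904 points (-2.70 to 0.903) and -0.812 points (-2.52 to 0.915), and each interval includes 0. For day 1 the shares were 27.1% of gained and 34.6% of lost peaks, and for day 6 they were 14.7% and 20.1%. The day 1 and day 6 lists also differ in form, with a shortest width of 150 bp and medians of 508 bp and 484 bp. The other DHS lists start at 251 bp and have medians of 568 bp to 616 bp. The part of this in the grouping was not tested. Gained peaks were lower in all 6 lists at equal list length, by -11.1 points for day 0, -3.07 for 2 hours, -7.54 for 4 hours, -13.8 for day 1, -6.13 for day 2 and -9.36 for day 6. That setting leaves no day 0 peak narrower than 276 bp but keeps those of 4 hours. With peaks narrower than this left out of both lists, the differences were -8.68 points for day 0 and -1.60 points (-3.75 to 0.555) for 4 hours. The lower share of gained peaks in the day 0, day 1 and day 6 lists kept its sign in all 9 alternatives, as did that of 2 hours. The sign at 4 hours was the same in 8 of 9, the exception being 0.379 points (-1.03 to 1.81) with all DHS lists shortened to equal length. For day 2 it was also the same in 8 of 9. The exception was 1.67 points (-0.682 to 4.05) among peaks of 268 to 497 bp. With an overlap of 50% of the shorter peak the day 2 difference was -2.06 points (-3.70 to -0.402). In 200 bp around the middle of each peak the differences were -2.18 points (-3.94 to -0.411) for 4 hours and -1.46 points (-2.56 to -0.329) for 2 hours, and with an overlap of 50% of the shorter peak -2.64 points (-4.37 to -0.900) and -1.61 points (-2.65 to -0.551). For these lists the interval thus includes or excludes 0 depending on the setting.

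**Figure D4:**
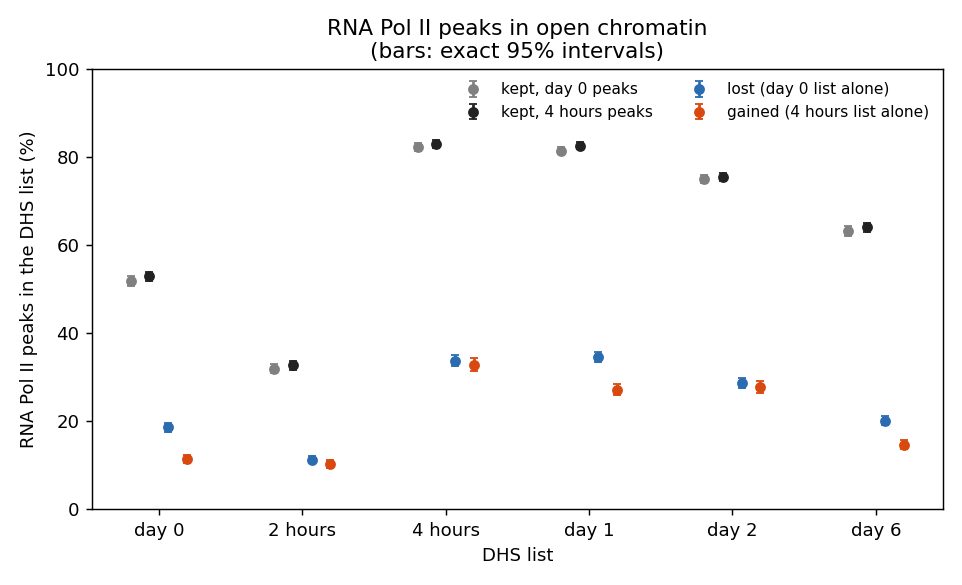
Share of RNA Pol II peaks (percent, vertical axis) that overlap each of 6 DHS lists (horizontal axis, by time), with exact 95% intervals as bars, for kept day 0, kept 4 hours, lost and gained peaks. Kept peaks lie far above the rest at every time, and gained peaks lie below lost peaks on day 0 (11.3% against 18.6%), day 1 and day 6.

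The classes also differed in which of the day 0 and 4 hours DHS lists they met. Of gained peaks, 21.6% (20.3 to 22.8) were in the DHS list of 4 hours and not in that of day 0, against 15.8% (15.0 to 16.7) of lost peaks. Counted by DHS peaks, those of 4 hours not listed on day 0 overlapped 19.8% of gained and 14.9% of lost peaks. With RNA Pol II lists of equal length these shares were 20.2% and 18.1%, with overlapping intervals. The size of this difference thus depended on list length. DHS peaks of 4 hours also listed on day 0 overlapped 14.2% of gained and 23.7% of lost peaks at equal list length. With all peaks, 11.3% of gained and 17.9% of lost peaks were in both DHS lists. Of gained peaks open at 4 hours (1431 peaks), 34.4% (31.9 to 36.9) had also been open on day 0. For lost peaks open at 4 hours (2225 peaks) this share was 53.1% (51.0 to 55.2), and for kept day 0 peaks it was 62.8%. Gained peaks in the 4 hours DHS list thus lay more often than lost ones at sites absent from the shorter day 0 DHS list. The reverse pattern, open on day 0 and not at 4 hours, was rare. It was found in 42 lost (0.637%), 12 kept day 0 (0.147%) and 2 gained peaks (0.0459%). The share was thus highest among lost peaks. Only 621 DHS peaks stood in the day 0 list and not in that of 4 hours, which was the longer by far. Few RNA Pol II peaks of any class could therefore have this pattern.

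Among the factors, GR had the highest ratio of gained to lost peaks at each of the 3 distances, though the ratios carry no interval and RXR came close at overlap. GR peaks of 4 hours overlapped 153 gained peaks (3.51%, 2.98 to 4.10) and 72 lost peaks (1.09%, 0.855 to 1.37), a ratio of 3.22. Within 10 kb they lay at 435 gained (9.98%) and 298 lost peaks (4.52%), a difference of 5.46 points (4.46 to 6.50) and a ratio of 2.21. Within 50 kb the shares were 19.4% and 13.0%, a ratio of 1.496. The ratio was thus highest at overlap and fell with distance. In percentage points the order of the factors was another. At overlap and within 10 kb, C/EBPbeta and C/EBPdelta of 4 hours had larger differences than GR with all peaks. Within 10 kb, so did C/EBPbeta of 2 hours (6.32 points) and of day 2 (6.00 points). Within 50 kb the difference of GR was the largest, with 6.43 points. At equal list length only C/EBPdelta of 4 hours within 10 kb was above GR (5.83 against 5.04 points). Kept 4 hours peaks had GR at 0.866%, 5.44% and 16.6% for the same limits, so gained peaks were above kept ones too at each distance. The gained and lost shares at equal list length were 3.41% and 1.15% at overlap, 9.88% and 4.83% within 10 kb, and 19.3% and 14.3% within 50 kb.

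The order of gained and lost peaks for GR was the same within subsets of width, runs and open chromatin. Among peaks of 268 to 497 bp, the middle range of gained and lost widths, GR lay within 10 kb of 8.66% (7.50 to 9.93) of gained and 4.00% (3.36 to 4.72) of lost peaks. With each run counted once the shares were 8.55% and 4.45%, and outside runs 7.93% and 4.33%. Outside the 4 hours DHS list they were 6.39% and 2.66%, and inside it 17.3% and 8.18%. GR was thus more common near peaks of either class in open chromatin. Seen from the 4080 GR peaks, 3.58% (3.03 to 4.19) overlapped a gained, 1.74% a kept and 1.69% a lost RNA Pol II peak, although the 4 hours list held more kept than gained peaks. Within 10 kb, 9.44% of GR peaks had a gained, 9.44% a kept and 7.45% a lost peak, so there gained and kept peaks were met equally often.

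Among the kinds of gained peaks compared here, GR was most common near those in a run and more than 5 kb from any day 0 peak. Of 1885 gained peaks within 5 kb of a day 0 peak, 9.87% had GR within 10 kb. Of 2026 gained peaks farther away and alone, 7.70% did, of 293 farther away in a pair 16.7% (12.6 to 21.5), and of 153 farther away in a run 28.8% (21.7 to 36.6). The same kinds of lost peaks had 6.45%, 3.92%, 3.54% and 4.00%. These runs were formed from all peaks of a list, so they could also hold kept peaks. Peaks of 1 run share their GR peaks, so whole runs of gained or lost peaks alone were counted as well. Such runs were not required to lie away from peaks of the other list. GR lay within 10 kb of 13 of the 44 runs of gained peaks alone (29.5%, 16.8 to 45.2) and of 2 of the 46 runs of lost peaks alone (4.35%, 0.531 to 14.8). It overlapped 7 of the former and none of the latter, where 0 of 46 has an upper bound of 7.71%. DHS of 2 hours was found in 20 of the 44 gained runs and 5 of the 46 lost ones, while DHS of 4 hours was found in 29 and 26 and DHS of day 0 in 11 and 17. Other lists leaned the same way at overlap: Stat5a with 7 gained against 1 lost run, C/EBPbeta of 2 hours with 17 against 9 and C/EBPdelta of 4 hours with 13 against 6. Within 50 kb GR lay at 18 and 10 runs, shares of 40.9% (26.3 to 56.8) and 21.7% (10.95 to 36.4) whose intervals overlap. These lists were picked from 17 lists at 3 distances after their values were seen, and the numbers are small.

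Stat5a and RXR, both measured at 4 hours, also lay at a higher share of gained than of lost peaks. Stat5a overlapped 3.28% of gained and 1.65% of lost peaks, lay within 10 kb of 11.6% and 7.69% (a difference of 3.90 points, 2.77 to 5.06) and within 50 kb of 26.4% and 21.9%. Kept 4 hours peaks had Stat5a at 1.91%, 9.80% and 27.5% for the 3 distances, so within 50 kb their share was above that of gained peaks, with overlapping intervals. They had RXR at 0.780%, 3.44% and 10.6%. RXR overlapped 1.58% and 0.546% of gained and lost peaks, a ratio of 2.90, and lay within 10 kb of 5.37% and 2.94% (a difference of 2.43 points, 1.66 to 3.23). Both orders held at equal list length, with differences within 10 kb of 3.57 points and 2.19 points. The RXR list is the shortest of the series with 2076 peaks, so these shares rest on 69 gained and 36 lost peaks at overlap.

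For C/EBPbeta the order of gained and lost peaks at overlap depended on when the factor was measured. C/EBPbeta of day 0 overlapped 9.69% (8.99 to 10.4) of lost and 7.73% (6.96 to 8.57) of gained peaks. C/EBPbeta of 4 hours overlapped 9.57% of lost and 12.1% (11.1 to 13.1) of gained peaks. The lists of 2 hours (7.22% and 8.61%) and day 2 (5.75% and 7.71%) had the order of the 4 hours list, but the 2 hours difference of 1.39 points was 0.233 points (-0.914 to 1.38) at equal list length and that of day 2 was 1.11 points (0.0449 to 2.18). Farther out, the order for the day 0 list depended on list length. Its difference was 0.998 points (-0.728 to 2.74) within 10 kb and 1.76 points (-0.148 to 3.68) within 50 kb, but -2.35 points (-4.22 to -0.469) and -3.29 points (-5.31 to -1.27) at equal list length. Within 10 kb, C/EBPbeta of 4 hours lay at 32.0% of lost, 39.2% of gained and 45.7% of kept 4 hours peaks, so kept peaks had the highest share. The difference between gained and lost peaks within 10 kb was 7.27 points (5.43 to 9.10), and 3.68 points (1.71 to 5.64) at equal list length. At overlap it was 2.52 points (1.34 to 3.74), and 0.940 points (-0.377 to 2.26) at equal list length, where the interval includes 0. Within 50 kb the lists of 2 hours, 4 hours and day 2 had 4.57, 3.78 and 4.38 points more gained than lost peaks, but at equal list length the differences were -0.357, -1.60 and -0.0624 points. No direction is therefore given for C/EBPbeta at 50 kb.

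C/EBPdelta showed the same dependence on time at overlap. Its short day 0 list (2581 peaks) overlapped 2.12% of lost and 1.10% of gained peaks, and 6.23% of kept day 0 peaks. Its 4 hours list (18327 peaks) overlapped 5.63% of lost and 8.42% of gained peaks, and lay within 10 kb of 22.3% and 30.6%, a difference of 8.28 points (6.58 to 9.98). At equal list length that difference was 5.83 points (4.01 to 7.65), and within 50 kb it went from 5.68 points to 1.24 points (-0.795 to 3.27). For the day 0 list the differences were -0.303 points (-1.28 to 0.698) within 10 kb and -0.176 points (-1.52 to 1.19) within 50 kb, and both intervals include 0. At equal list length they were -0.969 points (-2.05 to 0.113) and -1.80 points (-3.28 to -0.315), so the interval at 50 kb then excluded 0. Sites of a factor listed at a single time were set apart as well. The 15040 C/EBPbeta peaks found at 4 hours and not on day 0 overlapped 5.28% (4.63 to 5.98) of gained and 2.17% (1.83 to 2.55) of lost peaks. The 5586 C/EBPbeta peaks found on day 0 and not at 4 hours overlapped 0.872% (0.618 to 1.20) of gained and 2.21% (1.87 to 2.60) of lost peaks. The 14917 peaks of 4 hours also listed on day 0 overlapped 7.00% and 7.45%, shares that lie close together. Gained peaks thus held C/EBPbeta sites of 4 hours alone more often than lost peaks did, and lost peaks held sites of day 0 alone more often, at a few percent of the peaks of each class. With RNA Pol II lists of equal length, sites of 4 hours alone overlapped 5.30% of gained and 2.53% of lost peaks, and sites of day 0 alone 0.912% and 2.62%.

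PPARgamma, measured later, differed little at overlap. Its day 2 list overlapped 1.31% of gained and 1.02% of lost peaks, and its day 6 list 2.43% and 1.99%, and both intervals of the difference include 0. Within 10 kb the differences were 1.77 points (0.855 to 2.71) on day 2 and 2.19 points (1.03 to 3.38) on day 6, and at equal list length 1.24 points (0.243 to 2.25) and 0.946 points (-0.332 to 2.23). Within 50 kb they were 2.91 points (1.49 to 4.35) on day 2 and 3.62 points (1.94 to 5.31) on day 6. At equal list length these became 1.11 points (-0.433 to 2.66) and 0.412 points (-1.41 to 2.24), so the order at 50 kb depended on list length. Kept day 0 peaks had PPARgamma of day 6 within 10 kb in 14.7% of cases, above gained (11.4%) and lost peaks (9.24%).

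**Figure D5:**
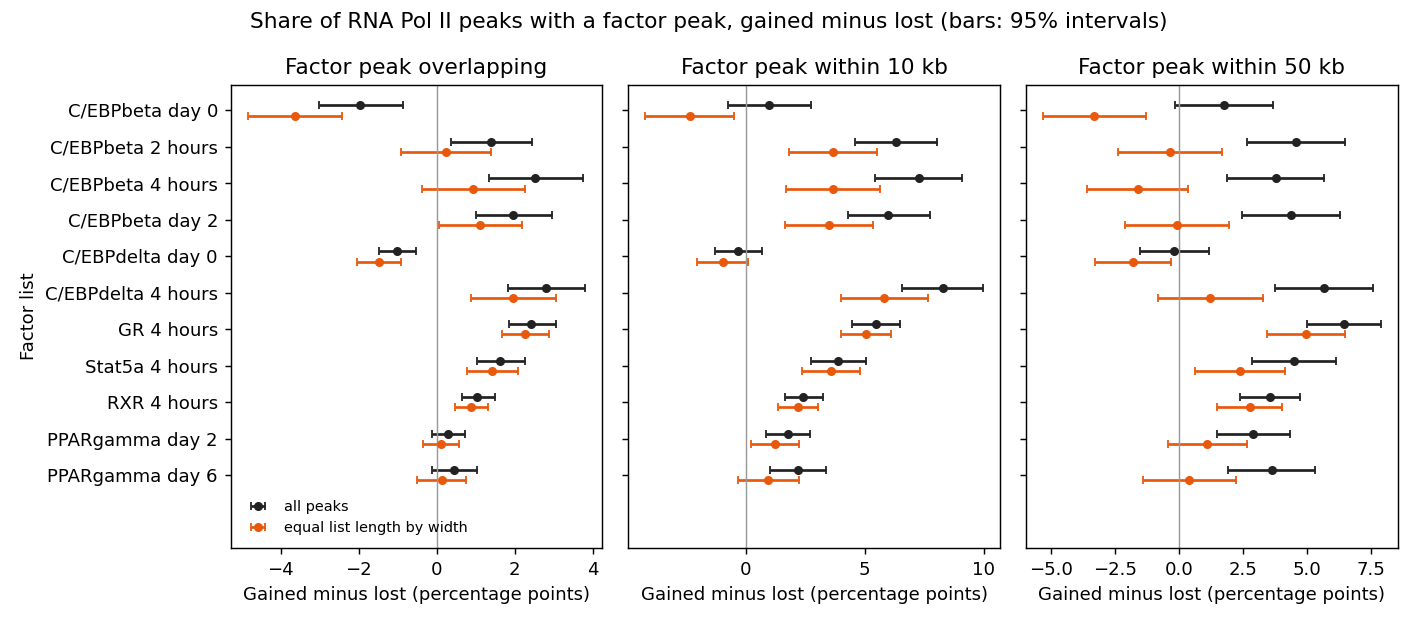
Difference between the share of gained and the share of lost RNA Pol II peaks with a factor peak overlapping, within 10 kb or within 50 kb (percentage points, horizontal axes), for 11 factor lists (vertical axis), with all peaks and at equal list length; bars are Newcombe 95% intervals. GR, Stat5a and RXR lie to the right of 0 in each panel and setting, whereas C/EBPbeta and C/EBPdelta of day 0 lie to the left at overlap.

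Places where all 5 factors of 4 hours gathered were scarce but unevenly spread. The 5 factors (GR, RXR, Stat5a and both C/EBP proteins) all lay within 10 kb of 151 gained peaks (3.47%, 2.94 to 4.05), 86 lost peaks (1.30%, 1.04 to 1.61) and 118 kept 4 hours peaks (1.44%, 1.19 to 1.72). None of the 5 lay within 10 kb of 57.0% of gained, 64.9% of lost and 48.7% of kept 4 hours peaks. Kept peaks thus had some factor nearby most often, and gained peaks had all 5 most often. The shares with all 5 at equal list length were 3.39% of gained and 1.43% of lost peaks.

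Of the gained peaks with all 5 factors nearby, the widest were on chromosome 1 at 172102555 to 172105086 (2532 bp), chromosome 10 at 77085482 to 77087681 (2200 bp) and chromosome 11 at 70012156 to 70014338 (2183 bp). The first and second lay 0.026 kb and 0.379 kb from a day 0 peak. The third overlapped all 5 factors and lay in the DHS lists of 2 hours, 4 hours, day 1 and day 2 but not in that of day 0. The widest such lost peak lay close by, on chromosome 11 at 70002689 to 70003940 (1252 bp), 8.22 kb from a 4 hours peak. The next lost peaks were on chromosome 3 at 151737607 to 151738811 (1205 bp), which overlapped all 5 factors and lay in all 6 DHS lists, and on chromosome 14 at 26886146 to 26887190 (1045 bp), which lay in none. Loss of a listed RNA Pol II peak was thus also seen where all 5 factors were bound.

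The widest gained and lost peaks had little in common with these. The widest gained peak, on chromosome 16 at 15888216 to 15891698 (3483 bp), lay 0.521 kb from a day 0 peak, in the DHS lists of 4 hours and later and on a C/EBPbeta peak of 2 hours, with GR 56.5 kb away. The next, on chromosome 14 at 52099698 to 52102997 (3300 bp), lay 96.3 kb from a day 0 peak and on a C/EBPdelta peak of 4 hours. The widest lost peak, on chromosome 17 at 56239376 to 56242297 (2922 bp), overlapped no factor and lay 20.0 kb from a 4 hours peak. The next, on chromosome 5 at 58107157 to 58109571 (2415 bp), lay 502 kb from any 4 hours peak, overlapped C/EBPbeta of day 0, 2 hours and 4 hours and was in 5 of the 6 DHS lists. The third, on chromosome 18 at 35024088 to 35026183 (2096 bp), lay 2.33 kb from a 4 hours peak and had no factor within 10 kb.

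Turnover was uneven over the genome. On chromosome X 63.0% (59.5 to 66.4) of 773 day 0 peaks were lost and 51.0% (46.9 to 55.1) of 586 peaks of 4 hours were gained. On the autosomes the share lost ran from 36.2% on chromosome 17 to 52.1% on chromosome 14, and the share gained from 28.2% on chromosome 5 to 43.5% on chromosome 14. Chromosome X thus stood above every autosome on both counts, and chromosome Y had 5 and 10 peaks, too few to compare. Peaks on chromosome X were also narrower and less often open: 27.8% of its gained peaks had the shortest width and 11.04% were in the 4 hours DHS list, against 16.9% and 34.5% elsewhere. Of its lost peaks, 24.4% had the shortest width and 17.9% were in that list, against 19.5% and 35.0% elsewhere. The part of these widths in the turnover on chromosome X was not tested. Without chromosome X, 56.4% of day 0 peaks were kept and GR within 10 kb was 5.81 points (4.73 to 6.92) more common at gained than at lost peaks.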

How the data were processed

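DHS-seq and ChIP-seq of 3T3-L1 cells gave 19 deposited lists, 1 per sample and with 1 library per group. A deposited file gives a peak as 3 columns, its chromosome and the positions of its edges in base pairs, with no height, score or count; no other unit was used. Build mm9 is named in the submitters' processing notes. Aligner, peak caller, threshold and depth are not given in the sources used here, so the number of peaks stands in place of depth.

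Intervals were compared as deposited with Python 3.11.15 and NumPy 2.4.6. Positions printed here are counted from 1. Shares carry Clopper-Pearson intervals (SciPy 1.17.1) and differences Newcombe intervals (statsmodels 0.14.6). Plots used Matplotlib 3.10.9. Distances run between nearest edges. Peaks were called kept by an overlap of 1 bp, and no p-value was computed. The overlap, distance and run calculations were checked on simulated peaks with known answers. Alternatives were other overlaps, the wider part of both lists, 200 bp around peak middles, equal list length by width, union regions, other runs, middle widths, peaks inside or outside open chromatin, and shortened DHS or factor lists. Leaving out chromosome X and using the same shortest width in both lists were added after seeing the data.

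Named regions were, by rule, the 3 widest gained, lost and kept peaks, the 3 runs with most peaks that hold gained or lost peaks alone or with most kept peaks, and the 3 widest gained and lost peaks with all 5 factors of 4 hours within 10 kb. The comparison and lists were chosen with earlier results of these data known. The gene table at hand was of another build, so gene lists were left out, and no sequences were printed.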

Additional observations from a re-analysis of the deposited data

How the results depend on the processing

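Of 443 alternative values, 342 stayed within the tolerance (1.5 times for counts, the interval of the reported value for shares, differences and medians), 98 moved beyond it and 3 turned direction from a reported value whose interval excluded 0. The share of day 0 peaks kept (55.4%) was 53.8% with an overlap of 50% of the shorter peak, 60.9% with a gap of 500 bp allowed, 42.2% with peaks set to 200 bp, 62.0% among the wider 50% of each list, 62.6% at equal list length and 54.1% of union regions. Of the alternatives added after seeing the data, leaving out chromosome X gave 56.4% and the same shortest width in both lists 60.4%. The wider 50% left 1702 gained and 2807 lost peaks, having fewer peaks by construction. Median width of lost peaks was 441 bp at equal list length, and that of gained peaks 372 bp with a gap of 500 bp. The difference between gained and lost peaks in runs (8.89 points) was 5.75 with gaps of 1 kb, 1.42 for runs of 5 or more peaks and 10.5 over union regions. For DHS of 4 hours it was -7.54 points at equal list length. For GR within 10 kb (5.46 points) it was 3.61 outside runs, 4.10 with each run counted once, 3.74 outside and 9.15 inside the 4 hours DHS list, and 3.73 with factor lists of equal length. All 33 GR alternatives over the 3 distances kept an interval above 0. The 3 that turned direction were C/EBPbeta of 2 hours, 4 hours and day 2 within 50 kb at equal list length (-0.357, -1.60 and -0.0624 points). Over all factors, 330 of 345 alternatives kept their sign. Where no construction is named, the cause was not tested. No paired analysis was possible because each group has 1 library. Peak number is the only stand-in for depth, so a peak missing from a list cannot be told apart from one under an unknown threshold.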

Other observations

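DHS of 2 hours lay within 10 kb of 31.8% of gained and 23.0% of lost peaks, a difference of 8.85 points (95% interval 7.14 to 10.6), and of 5.96 points (4.11 to 7.80) at equal list length. At overlap the 2 hours difference was -0.941 points (-2.11 to 0.255). The other 5 DHS lists also lay within 10 kb of more gained than lost peaks, by 3.35 points for day 0, 6.96 for 4 hours, 5.83 for day 1, 8.30 for day 2 and 6.39 for day 6. With equal list length these differences were -1.49, -0.429, -1.43, 1.80 and 0.948 points, each with an interval that includes 0. Of the 6 DHS lists, that of 2 hours alone thus kept the difference within 10 kb at equal list length.

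The 530 C/EBPdelta peaks listed on day 0 and not at 4 hours overlapped 215 kept day 0 peaks (2.62%), 28 lost peaks (0.425%) and 9 gained peaks (0.207%).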
